A study of Mus musculus with 16 samples.

Results

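Transcripts and open chromatin of the mTORC1 pathway were compared between neonatal mouse monocytes with high and with low surface Nrp1, neuropilin-1. The 32 genes described here encode the kinase complex mTORC1, its activator Rheb, the TSC complex, mTORC1 substrates, the Ragulator scaffold, the Rag GTPases, amino acid transporters, and sensors of stress and nutrients. They were chosen by symbol, with no threshold on their values but with earlier results of these data known. All 32 have a row among the 25562 genes of the count table. In ATAC-seq, which marks open chromatin by where a transposase cuts, 80 of 40796 listed regions carry the Ensembl identifier of a member, and they belong to 30 of the 32 genes.

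All cells came from the spleens of wild type mice at an age of 7 days, C57BL/6J for RNA-seq and C57BL/6 for ATAC-seq, with no treatment named. The label calls every sample myeloid derived suppressor cells, while the protocol speaks of sorted monocytes. RNA-seq had 3 Nrp1 high and 3 Nrp1 low libraries of 80000 cells each, and ATAC-seq 5 and 5 of 50000 cells. The protocol mentions pooled RNA, and nothing ties a library to an animal of its own, so the spread behind each p-value is that of these libraries and may be technical.

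mTORC1 is a protein kinase complex that couples growth factors, energy and amino acids to protein synthesis and to the restraint of autophagy. Amino acids act through the Rag GTPases, which Ragulator anchors on the lysosome and which bring mTORC1 to Rheb, and the TSC complex switches Rheb off. In myeloid cells the pathway is known for its part in metabolism, differentiation and the response to inflammatory signals. Its activity is set largely by phosphorylation and by place in the cell, neither of which was measured here.

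The promoters of several members hold an E-box, the letters CACGTG, which transcription factors of the MYC and TFEB families can bind. The windows shown first are those with a called open region just before the start (Fnip1), with the most E-boxes (Rragb), of a further Rag GTPase (Rragc) and of the 2 Ragulator subunits of lowest p in RNA (Lamtor4 and Lamtor2). Each runs from 150 bases before to 30 bases from the RefSeq start site onward, on GRCm38.p6, and is written 5′ to 3′ on the gene's strand. Capitals mark CACGTG and, in Lamtor4 alone, the reverse complement of TGATGNAA, the letters of an amino acid response element bound by ATF4.
Fnip1: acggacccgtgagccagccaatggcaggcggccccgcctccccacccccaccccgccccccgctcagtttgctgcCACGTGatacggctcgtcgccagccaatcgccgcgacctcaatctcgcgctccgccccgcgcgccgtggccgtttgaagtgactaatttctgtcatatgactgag
Rragb: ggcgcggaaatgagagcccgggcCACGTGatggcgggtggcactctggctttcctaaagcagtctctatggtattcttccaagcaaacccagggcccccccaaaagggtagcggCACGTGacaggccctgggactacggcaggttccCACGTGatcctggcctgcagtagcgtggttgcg
Rragc: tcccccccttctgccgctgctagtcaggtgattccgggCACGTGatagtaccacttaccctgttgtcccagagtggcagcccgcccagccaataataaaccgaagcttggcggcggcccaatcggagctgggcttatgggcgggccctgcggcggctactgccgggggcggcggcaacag
Lamtor4: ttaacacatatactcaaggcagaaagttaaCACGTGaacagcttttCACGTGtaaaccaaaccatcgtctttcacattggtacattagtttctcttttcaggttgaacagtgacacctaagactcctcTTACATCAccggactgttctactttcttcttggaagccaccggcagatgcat
Lamtor2: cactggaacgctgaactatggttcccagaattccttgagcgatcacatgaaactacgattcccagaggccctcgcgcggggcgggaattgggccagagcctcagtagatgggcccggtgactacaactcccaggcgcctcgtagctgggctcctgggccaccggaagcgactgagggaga
Fnip1 lies on the plus strand at chr11:54438029-54438208, Rragb on the plus strand at chrX:153139808-153139987 and Rragc on the plus strand at chr4:123917283-123917462. Lamtor4 lies on the plus strand at chr5:138255332-138255511 and Lamtor2 on the minus strand at chr3:88552922-88553101. The E-boxes began 75 bases before the start in Fnip1, 127, 36 and 3 bases before it in Rragb, 112 in Rragc and 120 and 104 in Lamtor4, while Lamtor2 had none in this window. The called open region of Fnip1, chr11:54437402-54437801, ends before the printed window and does not hold its E-box.

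RefSeq promoters of 300 bases, 250 before to 50 from the start onward, were at hand for 27 of the members. CACGTG, which reads the same on both strands, was found in 7 of these 27 genes, or 25.9%, against 8.09% of all 27025 genes with such a window and 7.15% of all 32851 windows. The other members with it were Rheb, Lamtor1 and Tbc1d7. The longer form TCACGTGA, which contains CACGTG, was in 0 of 27, against 1.12% of all genes, and TGATGNAA on either strand was in 1 of 27, against 4.51%. These are matches of letters and show no binding. The 27025 genes with a window include genes not tested in RNA here, and no share was computed over tested genes alone. The E-box share is therefore not read as particular to the pathway. An open region held the E-box of Fnip1, Rheb, Rragc and Tbc1d7 and all those of Rragb. In the authors' deposited table the FDR of these regions ran from 0.0831 for Rragb to 0.991 for Rheb. The E-boxes of Lamtor1 and Lamtor4, and the TGATGNAA match of Lamtor4, lay in no listed region. The nearest listed region of Lamtor4 begins 196 bases past the RefSeq start used here.

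The RNA libraries held 23395363 to 35127433 counts. Nrp1 itself stood at 89.8 to 111.4 CPM (counts scaled to an equal library size) in the high and at 20.1 to 57.8 CPM in the low libraries, so the groups did not overlap and lay in the direction of their labels (log2 fold change 1.32 ± 0.36 SE, edgeR adjusted p = 0.259). Nrp1 low replicate 1 lay apart on the first principal component, at -146.5 against -22.5 to 75.8 for the others, and results are therefore also given without it. It held the lowest value of 12 and the highest of 9 of the 30 members tested, while over all genes tested it was lowest for 35.2% and highest for 27.8%. Of the 10 markers of neutrophils and their granules, 8 were called lower in Nrp1 high, and their summed level was 50318 to 82178 CPM in the low and 8930 to 11468 CPM in the high libraries. The 8 monocyte markers summed to 30437 to 46281 CPM in the low and 24991 to 33849 CPM in the high libraries, with none called. Lyz2 alone made up most of this sum, at 27293 to 43312 CPM in the low and 21064 to 30573 CPM in the high libraries. Apart from Lyz2, Ccr2 lay above (log2 fold change 0.81) and Cd14 (-1.33) and Nr4a1 (-0.89) below without overlap of the groups, and the rest overlapped. Over all genes tested, the groups did not overlap in 20.3%. Of the other marker lists, 3 of 4 platelet and 1 of 3 basophil and mast cell genes were called lower, macrophage, B, T, NK, dendritic and erythroid lists had none called, and no marker was at 0 in all libraries. In sorted bulk samples, fewer cells of a type and less RNA per cell cannot be told apart.

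No member passed the RNA test between the fractions. At an adjusted p under 0.05 edgeR's quasi-likelihood test called 106 of 15541 genes (0.682%), and 0 of the 30 members tested were among them. The count of members was also 0 without low replicate 1, where 0.759% of all genes were called, and with DESeq2 and limma-voom. At an unadjusted p under 0.05 by edgeR there were 2 members, against 11.2% of all genes: Lamtor2 had a lower level in Nrp1 high (6.72% of all genes) and Slc38a9 a higher one (4.50%).

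The median log2 fold change (Nrp1 high minus low) was -0.12 over the members and 0.01 over all genes, with 17 members below 0 and 13 above. Without low replicate 1 the members' median was -0.02, and 25 of the 30 differences were nearer to 0. The matching share over all genes was not computed, so this count is not read as particular to the members. The groups did not overlap in 3 of 30 members, against 20.3% of all genes. In Slc38a9 and Tsc1 the high libraries lay above (9.51% of all genes) and in Akt1s1 below (10.8%). Scaling by library totals in place of TMM moved the median of all genes to 0.20 and that of the members to 0.07, and it turned the genes at an unadjusted p under 0.05 by edgeR from 699 higher and 1045 lower to 1268 higher and 605 lower.

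**Figure D1:**
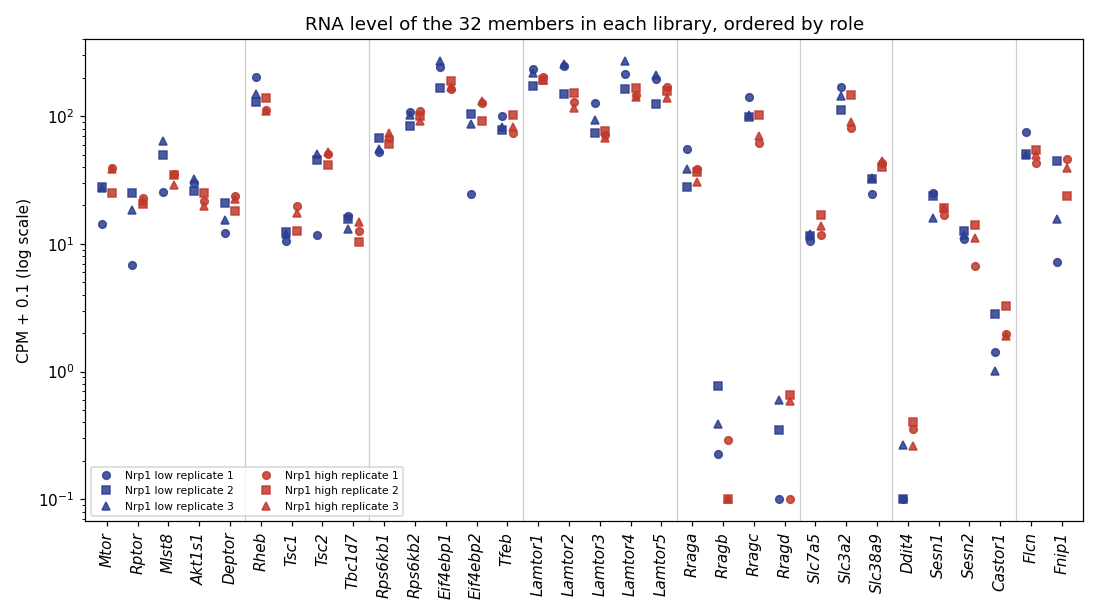
RNA level of each of the 32 members in each library, as CPM plus 0.1 on a log axis, ordered by role with vertical lines between roles; blue is Nrp1 low and red Nrp1 high, and the marker shape is the replicate. The groups overlap in 27 of the 30 members tested, and Rragb, Rragd and Ddit4 lie under 1 CPM in every library. CPM is not divided by transcript length, so heights are compared within a gene only.

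Among the mTORC1 subunits the direction was mixed. Mtor, the kinase, stood at 14.3, 27.9 and 27.3 CPM in the 3 Nrp1 low libraries (replicates 1 to 3) and at 39.2, 24.7 and 38.7 CPM in the 3 Nrp1 high libraries. High replicate 2 lay below 2 of the low libraries, and low replicate 1 lay below all others. Its log2 fold change was 0.56 ± 0.33 (SE; edgeR adjusted p = 0.475), or 0.31 without low replicate 1 and 0.76 without high replicate 2.

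Rptor encodes raptor, the scaffold that recruits substrates to the kinase. It stood at 6.71, 24.8 and 18.4 CPM in the low and 22.8, 20.4 and 21.5 CPM in the high libraries. Only low replicate 1 lay far from the rest. Its log2 fold change of 0.38 ± 0.43 (SE; edgeR adjusted p = 0.680) became -0.0034 without that library.

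Mlst8, the small subunit that binds the kinase domain, stood at 25.6, 49.6 and 63.6 CPM in the low and 34.9, 34.3 and 28.7 CPM in the high libraries. Here low replicate 1 was the lowest of all, on the other side of the high libraries from its fellow low libraries. The log2 fold change was -0.50 ± 0.33 (SE; edgeR adjusted p = 0.506) with all libraries and -0.80 (edgeR adjusted p = 0.280) without low replicate 1, and it was -0.21 without low replicate 3 and -0.32 with library totals in place of TMM. The ratio of Mtor to Mlst8 counts, chosen after its values were seen, was 0.558, 0.563 and 0.428 in the low and 1.13, 0.722 and 1.35 in the high libraries. This ratio does not depend on the scaling between libraries, and its groups did not overlap. Mtor spans 109104 and Mlst8 5565 bases in RefSeq, and differences went with the span of the gene, as described below. The part of span in this ratio was not tested.

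Akt1s1 encodes PRAS40, an inhibitor that AKT phosphorylates. It stood at 29.6, 25.7 and 31.8 CPM in the low and 21.4, 24.9 and 19.6 CPM in the high libraries, so every high library lay below every low one. This came to a log2 fold change of -0.40 ± 0.23 (SE; edgeR adjusted p = 0.466). Deptor, the other inhibitor within the complex, had a log2 fold change of 0.41 ± 0.28 (SE; edgeR adjusted p = 0.517) with overlapping groups, and 0.24 without low replicate 1.

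Rheb, the small GTPase that activates mTORC1, stood at 203.1, 128.3 and 149.8 CPM in the low and 112.3, 138.6 and 109.0 CPM in the high libraries. High replicate 2 exceeded low replicate 2, and the log2 fold change was -0.42 ± 0.23 (SE; edgeR adjusted p = 0.462). It was -0.21 without low replicate 1 and -0.22 with library totals.

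Tsc1, which stabilises the TSC complex, stood at 10.4, 12.2 and 11.8 CPM in the low and 19.8, 12.5 and 17.5 CPM in the high libraries. The groups did not overlap, but high replicate 2 lay only just above the low libraries. This gave a log2 fold change of 0.53 ± 0.27 (SE; edgeR adjusted p = 0.455). Tsc2, the subunit that switches Rheb off, stood at 11.5, 45.3 and 50.1 CPM in the low and 50.4, 41.6 and 52.5 CPM in the high libraries, so low replicate 1 lay far below the rest. Its log2 fold change of 0.43 became 0.01 without that library. The third subunit, Tbc1d7, had -0.26 ± 0.26 (SE; edgeR adjusted p = 0.644).

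The genes of the mTORC1 substrates showed no common direction. Eif4ebp1 and Eif4ebp2 encode inhibitors of cap-dependent translation that mTORC1 inactivates. Eif4ebp1 stood at 243.0, 164.9 and 270.3 CPM in the low and 163.8, 187.8 and 169.0 CPM in the high libraries (log2 fold change -0.38 ± 0.22 SE, edgeR adjusted p = 0.474). Eif4ebp2 stood at 24.3, 104.5 and 86.9 CPM in the low and 127.4, 90.8 and 132.0 CPM in the high libraries (0.70 ± 0.47 SE, edgeR adjusted p = 0.509).

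For Eif4ebp2 the difference was 0.29 without low replicate 1, the library far below the rest, and for Eif4ebp1 it was -0.24 without low replicate 3 and -0.18 with library totals. The ratio of Eif4ebp1 to Eif4ebp2 counts was 9.99 in low replicate 1, 1.58 and 3.11 in the other low libraries and 1.28 to 2.07 in the high libraries. The groups overlapped in this ratio.

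The S6 kinase gene Rps6kb1 stood at 51.9, 67.0 and 54.8 CPM in the low and 67.5, 60.7 and 73.8 CPM in the high libraries (log2 fold change 0.22 ± 0.20 SE). Its relative Rps6kb2 stood at 108.3, 83.8 and 102.8 CPM in the low and 110.6, 100.4 and 92.0 CPM in the high libraries (0.04 ± 0.19 SE). The groups overlapped in both. The gene of TFEB, a transcription factor of lysosome genes that mTORC1 keeps out of the nucleus, had -0.02 ± 0.21 (SE). The 95% interval for Tfeb ran from -0.49 to 0.46 and that for Rps6kb2 from -0.39 to 0.47, so a difference of 2-fold lay outside both. For Mtor the interval ran from -0.20 to 1.32 and for Eif4ebp2 from -0.38 to 1.78, and a 2-fold difference lay inside both.

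**Figure D2:**
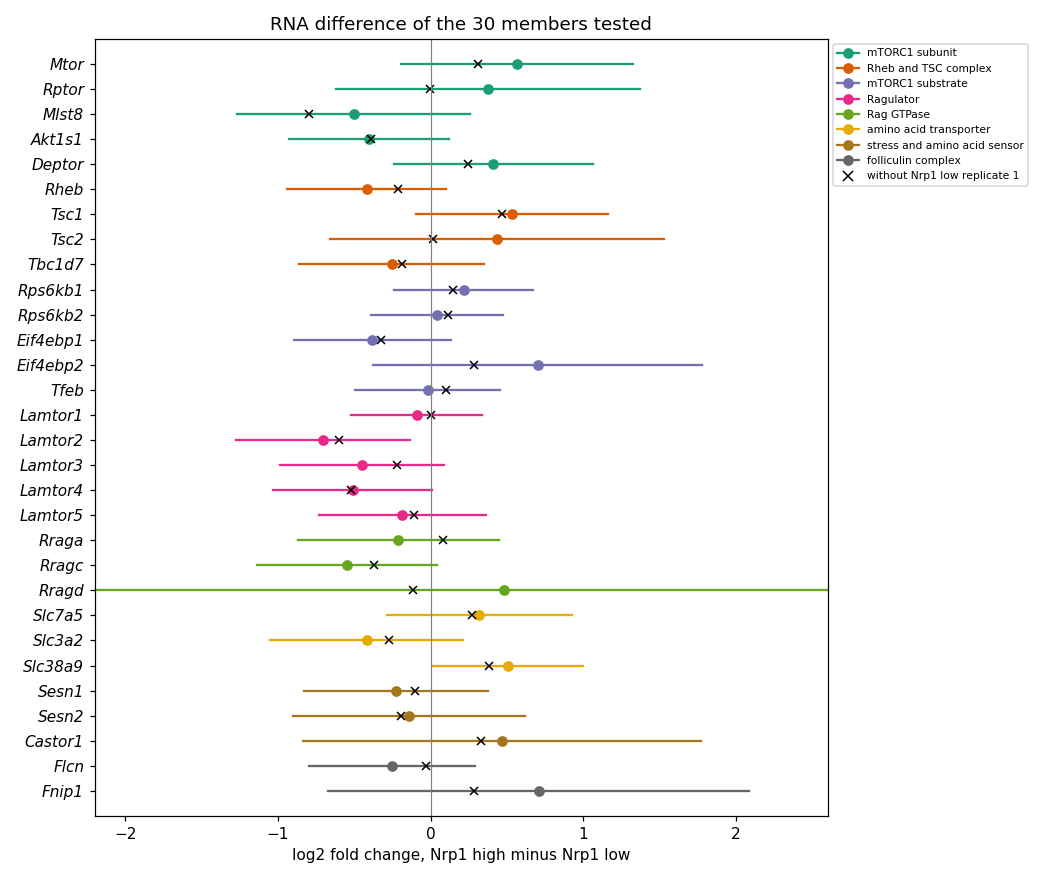
Log2 fold change of RNA, Nrp1 high minus Nrp1 low, for the 30 members tested, with points for the fit of all 6 libraries, bars for 95% intervals and crosses for the fit without Nrp1 low replicate 1; colours are roles, and the bar of Rragd runs past the axis. Only the intervals of Lamtor2 and Slc38a9 exclude 0, before any adjustment for the number of genes.

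All 5 Ragulator genes had log2 fold changes below 0, from -0.70 for Lamtor2 to -0.09 for Lamtor1, with a median of -0.45, and 49.4% of all genes tested lay below 0. None was called. The count below 0 was 3 of 5 with library totals in place of TMM, where Lamtor1 stood at 0.11 and Lamtor5 at 0.0233, and 4 of 5 without low replicate 1, where Lamtor1 stood at 0.0049 and the median was -0.22. Ragulator is the lysosomal scaffold of the Rag GTPases, held to the membrane by the lipid-modified Lamtor1, and the other subunits pack against it. Lamtor2 (p14) stood at 246.8, 149.3 and 254.2 CPM in the low and 129.4, 153.1 and 116.9 CPM in the high libraries. Low replicate 2 lay within the range of the high libraries, and the other low libraries lay far above it. The log2 fold change was -0.70 ± 0.25 (SE; edgeR adjusted p = 0.394), or 1.63-fold lower in mean CPM.

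Lamtor4 stood at 212.6, 162.2 and 271.6 CPM in the low and 145.5, 167.1 and 141.2 CPM in the high libraries (log2 fold change -0.51 ± 0.23 SE, edgeR adjusted p = 0.445). Lamtor3, the MP1 scaffold that pairs with Lamtor2, stood at 127.0, 73.6 and 93.2 CPM in the low and 71.1, 76.7 and 67.4 CPM in the high libraries (-0.45 ± 0.23 SE, edgeR adjusted p = 0.457). In each of these genes low replicate 2 was the lowest of the low libraries and lay below high replicate 2. The value of Lamtor3 was -0.22 without low replicate 1, and that of Lamtor4 -0.31 without low replicate 3. Lamtor1 stood at 235.5, 171.7 and 217.0 CPM in the low and 201.3, 191.7 and 192.5 CPM in the high libraries (-0.09 ± 0.19 SE), and Lamtor5 had -0.19 ± 0.24 (SE).

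The 5 genes together summed to 1018, 680.4 and 1047 CPM in the low and 717.8, 746.5 and 655.8 CPM in the high libraries. Low replicate 2 was also the low library with the lowest sum of granule markers, at 50318 CPM against 76139 and 82178 CPM. It also had the lowest sum of monocyte markers of the low libraries, at 30437 CPM against 46281 and 43633 CPM. Most of the monocyte sum was Lyz2. Among the high libraries replicate 2 was highest in all 3 sums. The part of either marker list in the Ragulator values was not tested. Without low replicate 2, Lamtor2, Lamtor3, Lamtor4, Rheb and Eif4ebp1 had lower and Fnip1 higher values at an unadjusted p under 0.05 by edgeR. Over all genes 21.2% reached that p in this fit, and none of these members was called. The fit leaves out the low library nearest to the high ones in the Ragulator sum. Such members numbered 2 without low replicate 1 (1388 of 16469 genes) and 4 without high replicate 2 (2458 of 16357 genes). There were 0 without low replicate 3, high replicate 1 or high replicate 3. The ratio of Lamtor2 to Lamtor1 counts, chosen after its values were seen, was 1.05, 0.869 and 1.17 in the low and 0.643, 0.799 and 0.607 in the high libraries, with groups that did not overlap.

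**Figure D3:**
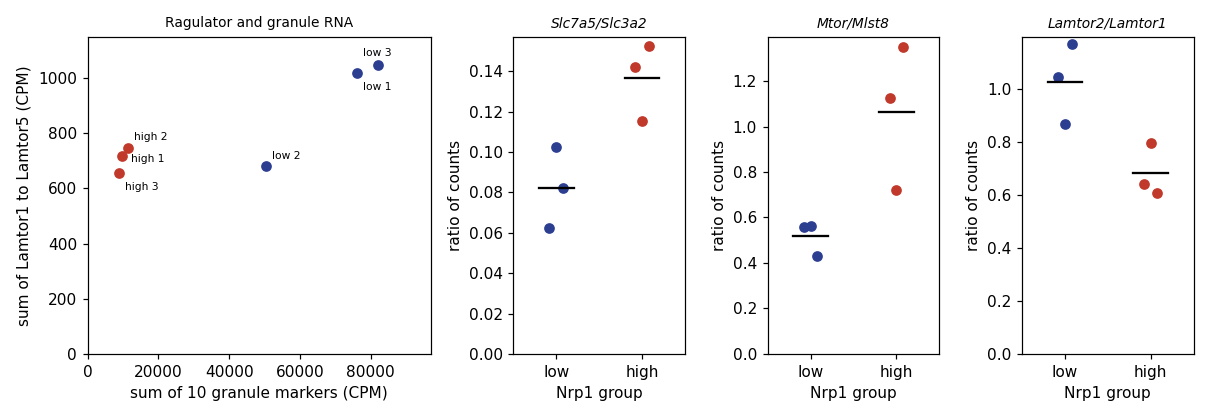
Left, the summed CPM of the 5 Ragulator genes against that of the 10 granule markers, 1 point per library; right, the ratio of counts of 3 gene pairs in each library, with the group mean as a bar. Low replicate 2 lies near the high libraries in the Ragulator sum while its granule sum lies far above theirs. The groups do not overlap in the 3 ratios drawn. Mtor to Mlst8 and Lamtor2 to Lamtor1 were chosen after their values were seen. Ratios that overlapped or could not be computed in every library are not drawn.

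The Rag GTPases work as pairs of RagA or RagB with RagC or RagD. Rragc stood at 141.3, 99.2 and 102.4 CPM in the low and 61.5, 103.0 and 69.8 CPM in the high libraries. High replicate 2 lay among the low libraries, and the log2 fold change was -0.55 ± 0.26 (SE; edgeR adjusted p = 0.445), or -0.37 without low replicate 1. Rraga stood at 55.6, 27.8 and 38.6 CPM in the low and 38.8, 36.2 and 30.5 CPM in the high libraries. Its log2 fold change was -0.21 ± 0.29 (SE; edgeR adjusted p = 0.728), and 0.08 without low replicate 1.

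The counts of the other member of each kind, Rragb and Rragd, were close to 0. Rragb had 4, 16 and 7 counts in the low and 6, 0 and 0 in the high libraries and did not pass the filter on low counts. Rragd had 0, 6 and 12 counts in the low and 0, 18 and 15 in the high libraries, with an interval of its log2 fold change from -3.34 to 4.30. No difference was detectable for either at this depth.

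Among the transporters, Slc38a9, the arginine sensor of the lysosomal membrane, stood at 24.7, 32.1 and 32.7 CPM in the low and 43.1, 39.6 and 44.2 CPM in the high libraries. Every high library lay above every low one, by 1.42-fold in the means. The log2 fold change was 0.50 ± 0.22 (SE; edgeR adjusted p = 0.441) and 0.38 without low replicate 1.

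Slc7a5 and Slc3a2 encode the light and heavy chains of LAT1, the importer of leucine and other large neutral amino acids. Slc3a2 stood at 169.1, 110.8 and 144.4 CPM in the low and 81.2, 145.7 and 90.4 CPM in the high libraries (log2 fold change -0.42 ± 0.28 SE, edgeR adjusted p = 0.506). Slc7a5 stood at 10.5, 11.4 and 11.9 CPM in the low and 11.5, 16.8 and 13.8 CPM in the high libraries (0.32 ± 0.26 SE, edgeR adjusted p = 0.569). The groups overlapped in each gene alone, and Slc3a2 had -0.27 without low replicate 1 and -0.71 without high replicate 2.

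Their ratio, Slc7a5 to Slc3a2 counts, was 0.0622, 0.103 and 0.0824 for Nrp1 low. For Nrp1 high it was 0.142, 0.115 and 0.153, and here the groups did not overlap. The means were 0.0824 ± 0.0201 and 0.137 ± 0.0193 (SD, n = 3 each). It was the only one of the pairs fixed for comparison that could be computed in every library and separated the groups. Among single genes tested, 20.3% had groups that did not overlap, and no such share was computed for ratios. The ratios of Rps6kb1 to Rps6kb2, Tsc1 to Tsc2, Sesn1 to Sesn2 and Rptor to Rictor, the scaffold of mTORC2, overlapped. That of Eif4ebp1 to Eif4ebp2 did too. No test was made of a ratio. The counts are not per length, so a ratio is read between libraries only.

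No sensor or inhibitor upstream passed the test. Sesn1 and Sesn2 encode sestrins, of which Sestrin2 binds leucine. Sesn1 stood at 24.9, 23.5 and 15.8 CPM in the low and 16.8, 19.0 and 19.0 CPM in the high libraries (log2 fold change -0.23 ± 0.26 SE). Sesn2 stood at 10.8, 12.4 and 11.6 CPM in the low and 6.56, 13.9 and 11.1 CPM in the high libraries (-0.14 ± 0.33 SE). The groups overlapped in both. Castor1, an arginine sensor, was at 0.916 to 3.18 CPM in all libraries (0.47 ± 0.57 SE), and its difference ran from 0.16 without high replicate 2 to 1.01 without low replicate 2. Ddit4, the stress-induced inhibitor REDD1, had 0, 0 and 4 counts in the low and 8, 10 and 5 in the high libraries and did not pass the filter. The scale of a count is uncertain in this table, so no fold is given.

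Flcn, folliculin, acts with Fnip1 on the RagC and RagD proteins. Flcn had a log2 fold change of -0.25 ± 0.24 (SE; edgeR adjusted p = 0.611), or -0.03 without low replicate 1. Fnip1 stood at 7.12, 44.3 and 15.7 CPM in the low and 46.1, 23.8 and 39.5 CPM in the high libraries, and low replicate 2 lay among the highest. Its log2 fold change was 0.71 ± 0.60 (SE; edgeR adjusted p = 0.576), with 0.28 without low replicate 1 and 1.68 without low replicate 2.

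**Figure D4:**
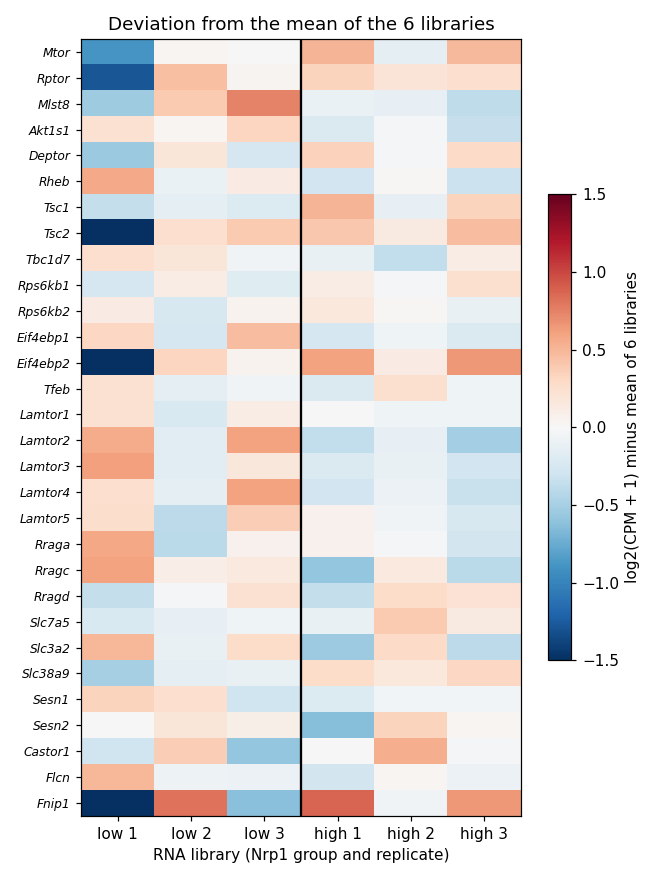
Deviation of each tested member in each library from its mean over the 6 libraries, in log2(CPM + 1), with rows ordered by role and the colours ending at -1.5 and 1.5. Nrp1 low replicate 1 is dark blue for Rptor, Tsc2, Eif4ebp2 and Fnip1 and red for most Ragulator and Rag genes.

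The sign of the difference went with the span of the gene. Of the 15 members with the shorter RefSeq span from first to last base, introns included, 2 had a log2 fold change above 0, and of the 15 with the longer span 11 did. Over all genes split at the same span, 39.1% of 7244 shorter and 59.4% of 6921 longer genes lay above 0. The Ragulator genes, with spans of 3133 to 10208 bases, were all among the shorter members. The part of span in their values was not tested. Spearman's rho between span and log2 fold change was 0.574 over the 30 members and 0.219 over 14165 genes, and 0.502 and 0.128 without low replicate 1. The points share libraries, and span is not transcript length, which was not used here.

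Of 77 further genes of the pathway, 75 were tested and 0 were called by edgeR over all genes. At an unadjusted p under 0.05 by edgeR, 7 of the 75 were higher and 5 lower, against 4.50% and 6.72% of all genes, and the median log2 fold change was 0.35, or 0.12 without low replicate 1. DESeq2 called 2, with Asns among them, against 1.54% of all genes, and limma-voom called Asns, against 0.772%. Above 0 lay 52 of the 75, against 50.6% of all genes, and 50 of 75 without low replicate 1, against 50.9%. By list, 11 of 12 PI3K and AKT genes lay above 0 (10 without low replicate 1), 11 of 13 other nutrient-sensing genes (10), 11 of 14 downstream genes (10) and 3 of 4 assembly genes (3). Fewer did in GATOR2 with 2 of 5 (2), KICSTOR with 1 of 3 (2), the ATF4 targets with 3 of 7 (4) and mTORC2 with 2 of 4 (2). GATOR1 had 2 of 3 (2), energy and stress inputs 5 of 9 (4), and the Ragulator partner Borcs6 also lay above 0 in both fits. Sizes changed more than signs without low replicate 1. The median fell from 0.513 to 0.139 for PI3K and AKT genes and from 0.495 to 0.0953 for other nutrient-sensing genes. It fell from 0.440 to 0.192 for downstream and from 0.104 to 0.0697 for assembly genes. The genes of a list share the same libraries.

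Asns, asparagine synthetase and a target of ATF4, stood at 79.9, 63.7 and 67.7 CPM in the low and 21.3, 35.8 and 20.2 CPM in the high libraries. All high libraries lay well below all low ones, by 2.73-fold in the means. The log2 fold change was -1.45 ± 0.28 (SE), with an edgeR adjusted p of 0.0763 and a DESeq2 adjusted p of 0.000464.

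Psat1, an enzyme of serine synthesis and also a target of ATF4, lay the other way, at 69.5 to 87.8 CPM in the low and 103.9 to 125.1 CPM in the high libraries (log2 fold change 0.56 ± 0.19 SE, edgeR adjusted p = 0.385). Of the 7 ATF4 targets 4 lay below 0 and 3 above. Castor2, a relative of Castor1, had a log2 fold change of 1.47 ± 0.51, the mTORC2 partner Prr5l -1.40 ± 0.46 and Eef2k, a kinase of elongation factor eEF2, -0.77 ± 0.28 (SE).

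Open chromatin at the members was compared through the authors' deposited table, which lists for each region its log2 fold, p and FDR (adjusted p) and no value per library. Of 80 member regions 4 were under an FDR of 0.05, or 5.00%, against 7.55% of all regions, with 1 higher and 3 lower in Nrp1 high, against 2.56% and 4.99%. The median log2 fold was -0.02 over the member regions and -0.09 over all regions, and 44 of the 80 lay below 0, against 61.5% of all. Within 3000 bases of a transcript start 3 of 48 member regions were under 0.05 in the authors' deposited table, against 5.84%, and within 1000 bases 2 of 41, against 5.24%. Under an FDR of 0.01 there were 2 of 80, against 2.45%, under 0.1 there were 5, against 13.2%, and at the authors' unadjusted p under 0.05 there were 14, against 23.7%. The direction rests on the name of the comparison, high against low, since no column states it. The ATAC-seq labels refer to a file made by DESeq2, whereas the one deposited carries the name of edgeR, so it may not be the table they describe.

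The region higher in Nrp1 high lay in front of Fnip1, at chr11:54437402-54437801, 378 bases before the RefSeq start. In the authors' deposited table its log2 fold was 0.77, or 1.71-fold, with an FDR of 0.0260. A second region at the Fnip1 start itself, which holds the E-box printed in capitals, had 0.12 with an FDR of 0.637. The RNA of Fnip1 had a difference of the same sign that did not pass the test.

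The region with the lowest FDR lay inside Slc38a9, at chr13:112666686-112667085, within the RefSeq gene, and the table puts it at -1286 bases from the start of a transcript. The authors' deposited log2 fold was -0.65 with an FDR of 0.00159. At the main Slc38a9 start the log2 fold was 0.11 with an FDR of 0.600 in the authors' deposited table. The RNA of Slc38a9 lay above 0, and the region inside the gene below 0.

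The other 2 regions were also lower. One is annotated to Eif4ebp1 at chr8:27260750-27261149, 421 bases from the start onward, with a log2 fold of -0.45 and an FDR of 0.0200 in the authors' deposited table. The RNA difference of Eif4ebp1 had the same sign. The region given to Rraga at chr4:86580060-86580459 is annotated as a 3' UTR and lies in the neighbouring gene Haus6, 4392 bases from the Rraga start. Its log2 fold was -0.75 with an FDR of 0.00211 in the authors' deposited table, and the region at the Rraga promoter had 0.06 with an FDR of 0.770.

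Lamtor2 and Rps6kb1 have no region under their own identifier. A region near the Lamtor2 start, at chr3:88553242-88553641, is assigned to the neighbouring gene Ubqln4 and begins 291 bases away from it. Its log2 fold was -0.46 with an FDR of 0.0108 in the authors' deposited table, and Lamtor2 was the member of lowest p in RNA, with a difference of the same sign. Which of the 2 genes the region serves was not tested. The region 22 bases from the Rps6kb1 start is assigned to Tubd1 and had 0.07 with an FDR of 0.740.

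**Figure D5:**
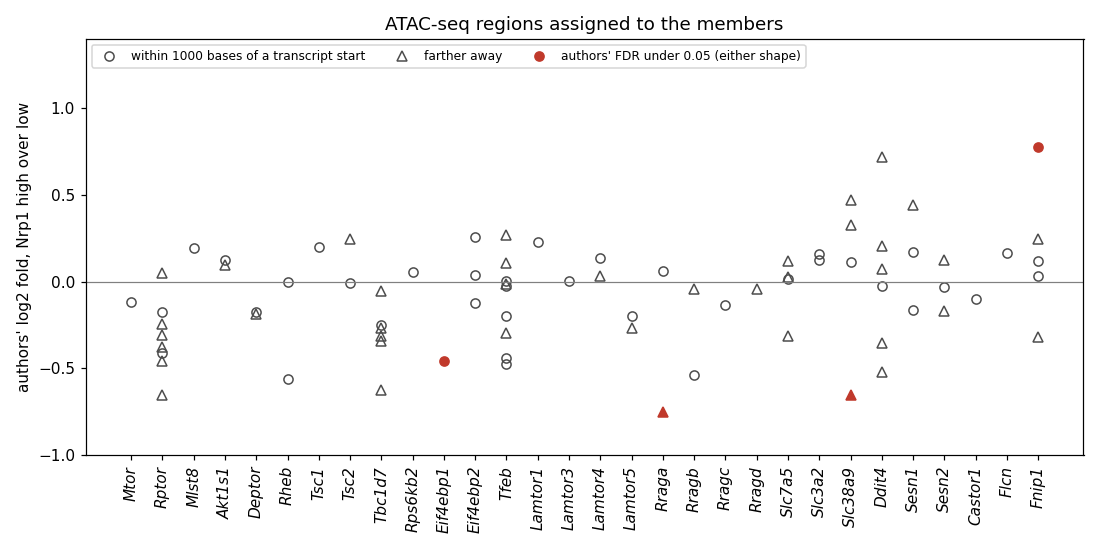
The authors' log2 fold (Nrp1 high over low) of each of the 80 ATAC-seq regions assigned to a member, by gene; circles lie within 1000 bases of a transcript start and triangles farther away, and filled red marks an FDR under 0.05. The 4 filled regions belong to Eif4ebp1, Rraga, Slc38a9 and Fnip1.

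At the promoters of the other members whose RNA is given by library, no region was under an FDR of 0.05 in the authors' deposited table. The promoter region of Mtor had a log2 fold of -0.12 (FDR 0.438), that of Tsc1 0.20 (FDR 0.281), that of Mlst8 0.20 (FDR 0.161) and that of Akt1s1 0.12 (FDR 0.414). Rptor, with 8 regions, had 7 below 0, and its promoter region stood at -0.41 (FDR 0.129). The second region of Rheb, at another annotated start, had -0.56 (FDR 0.182), and the Rragb promoter -0.54 (FDR 0.0831). Lamtor3, Lamtor4, Rragc and Slc3a2 had promoter values between -0.14 and 0.16. The promoter regions of lowest FDR of Eif4ebp2, Slc7a5 and Lamtor1 had 0.26 (FDR 0.657), 0.12 (FDR 0.634) and 0.23 (FDR 0.133). That of Slc7a5 lies inside the gene, at -1946 bases from another annotated start. The region at the main Slc7a5 start had 0.01 (FDR 0.963). The promoter regions of lowest FDR of Tsc2, Rps6kb2, Sesn1 and Sesn2 had -0.0091 (FDR 0.985), 0.06 (FDR 0.895), -0.16 (FDR 0.348) and -0.03 (FDR 0.908).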

How the data were processed

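RNA was measured in 6 libraries and open chromatin in 10. The authors deposited estimated counts per gene as whole numbers; HISAT2, StringTie and GRCm38 appear in the submitters' processing notes. The count of 4 occurred 1.22 to 1.53 times as often as the mean of its neighbours 3 and 5 in each library, which makes the scale uncertain. Whether counting used strand is not stated. For ATAC-seq the authors deposited per region a log2 fold, a p-value and its FDR; the notes also name MACS2, DiffBind, edgeR, DESeq2 and ChIPseeker, and depth is unknown.

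filterByExpr kept 15541 of 25562 genes. After TMM scaling, the groups were compared by edgeR 4.0.16 (R 4.3.3; robust quasi-likelihood, group only, Benjamini-Hochberg over all genes). DESeq2 1.42.0 and limma 3.58.1 were alternatives. The procedure was tested on simulated data. Groups and replicates come from the titles. Members and lists were chosen with earlier results of these data known. Every member is named, with values by library for Mtor, Rptor, the 12 members of lowest p and those in ratios, and values for the 6 further pathway genes of lowest p, of which 1 is not reported here. Levels were not compared between genes, and ratios are of counts, since no transcript length was used. Sequences are RefSeq's, GRCm38.p6. Mlst8 overlaps Bricd5, Tsc2 Pkd1, Rps6kb1 Rnft1, Lamtor1 Tomt and Deptor Gm9920, and Lamtor3 has a pseudogene, so these may share reads.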

Additional observations from a re-analysis of the deposited data

How the results depend on the processing

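Over 15 alternatives the 30 members gave 449 log2 fold changes (Rragd has 1 fewer). Of these 434 kept their sign and were not called, and 15, in 8 members, changed sign without being called; the lowest adjusted p by edgeR was 0.144, for Lamtor2 without low replicate 2. With library totals in place of TMM, Lamtor1 stood at 0.11, Lamtor5 at 0.0233, Sesn2 at 0.0390 and Tfeb at 0.17. With 1 library left out at a time, Lamtor1 ranged from -0.22 to 0.0049, Rps6kb2 from -0.067 to 0.11, Rptor from -0.0034 to 0.78, Rraga from -0.43 to 0.0816, Rragd from -0.12 to 1.47, Sesn2 from -0.39 to 0.11 and Tfeb from -0.15 to 0.0996.

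No member was called in any fit. At an unadjusted p under 0.05 by edgeR there were 2 members in the main fit, against 11.2% of all genes. This count was 1 with upper-quartile factors, 3 with library totals and 0 to 6 with 1 library left out. Over all genes edgeR called 106 and DESeq2 393, and with 1 library left out edgeR called 0 to 125. The 0 came with high replicate 3 left out (909 at an unadjusted p under 0.05). It called 28 with high replicate 1, 29 with low replicate 3 and 50 with high replicate 2 left out. A replicate block left 0 genes called by edgeR (943 at an unadjusted p under 0.05, 0 of them members). Same-numbered libraries deviated from their group means with correlations of -0.215, -0.215 and 0.0189. Each mean rests on 3 libraries, so these values cannot decide whether same-numbered libraries share a source. The labels state no pairing. Of the further pathway genes DESeq2 called 2 and limma-voom 1. Of the 4 ATAC-seq regions 2 remained under an FDR of 0.01 and 2 within 1000 bases of a start. No paired analysis was possible for ATAC-seq because its table lists no library. Levels per length were not run.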
